A study of Homo sapiens with 5 samples.

Results

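The integrated stress response was followed through 10 genes chosen by name, of the 26364 genes in each count file: ATF4, ATF3, DDIT3 (which encodes CHOP), DDIT4, TRIB3, NUPR1, SESN2, ASNS, VLDLR and STC2. They were divided into 7 genes of the amino acid response (ATF4, ATF3, DDIT3, TRIB3, NUPR1, SESN2 and ASNS) and 3 genes linked to ATF4 that low oxygen also induces (DDIT4, VLDLR and STC2). The RNA came from tumours of HT-29, a human colon cancer cell line, grown under the skin of the back in female NOD SCID mice, a strain that lacks T and B cells. The mice were 5 weeks old when obtained and received 1 of 4 diets. There was 1 library each from normal food, from food lacking tryptophan and niacin (tryptophan/niacin-free) and from food lacking methionine, tryptophan and niacin (the combined omission), and 2 libraries came from food lacking methionine (methionine-free). The labels give 2 weeks of rearing on the diets in one place and an experimental period of 3 weeks in another. They do not say whether the methionine-free pair came from separate mice. The p-values given here rest on the spread of that pair alone, pooled over genes, and this spread may be technical. In the main test a gene's own replicate spread did not set its p-value.

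The integrated stress response starts when kinases that sense amino acid shortage (GCN2), misfolded protein (PERK), double-stranded RNA (PKR) or haem shortage (HRI) phosphorylate the translation factor eIF2. General translation then slows while the ATF4 messenger RNA is translated more, so ATF4 activity can change without a change in its own RNA. ATF4 induces genes of amino acid synthesis and import, and together with CHOP and ATF3 it induces genes of growth arrest and cell death. Some of its targets, DDIT4 among them, are also induced by the hypoxia factor HIF.

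Promoter windows of ASNS, DDIT4 and DDIT3 are shown because these genes stand for the contrasting profiles described here: ASNS is a textbook amino acid response target, DDIT4 is also a hypoxia target, and DDIT3 encodes CHOP. Each is the 250 bases before a RefSeq transcription start (build GRCh38.p14), 5′ to 3′ on the strand of the gene, and 9 of the 10 genes matched the RefSeq table, NUPR1 being the exception. Capitals mark matches, on either strand, to the core of the C/EBP-ATF response element bound by ATF4 (TGATGNAA) and to the core of the hypoxia response element (ACGTG or GCGTG); no 2 matches overlap in these windows. The ASNS window is chr7:97872409-97872658 on the minus strand, the DDIT4 window chr10:72273674-72273923 on the plus strand, and the DDIT3 window chr12:57520515-57520764 on the minus strand.
ASNS: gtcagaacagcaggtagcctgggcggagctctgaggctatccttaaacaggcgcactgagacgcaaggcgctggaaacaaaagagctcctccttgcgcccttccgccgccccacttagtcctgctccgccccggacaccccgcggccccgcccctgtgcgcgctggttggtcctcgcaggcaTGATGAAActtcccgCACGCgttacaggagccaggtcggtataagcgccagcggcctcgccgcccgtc
DDIT4: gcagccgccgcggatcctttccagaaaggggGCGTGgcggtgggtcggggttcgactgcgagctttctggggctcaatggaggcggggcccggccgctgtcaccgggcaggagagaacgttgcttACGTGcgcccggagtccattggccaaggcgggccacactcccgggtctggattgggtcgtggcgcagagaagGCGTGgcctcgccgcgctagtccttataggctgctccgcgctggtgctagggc
DDIT3: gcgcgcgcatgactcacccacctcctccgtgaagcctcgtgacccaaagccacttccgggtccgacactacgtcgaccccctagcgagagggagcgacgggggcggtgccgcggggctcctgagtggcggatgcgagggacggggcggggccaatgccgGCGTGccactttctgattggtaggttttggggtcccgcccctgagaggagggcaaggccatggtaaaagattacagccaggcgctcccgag
In the ASNS window shown, the C/EBP-ATF core TGATGAAA lay at bases -68 to -61 from the start, and a hypoxia core on the opposite strand at -53 to -49. RefSeq has another ASNS start, whose window (chr7:97872166-97872415, minus strand) held no C/EBP-ATF core and 1 hypoxia core, at -133 to -129. The DDIT4 window held 3 hypoxia cores, at -219 to -215, -125 to -121 and -53 to -49, and no C/EBP-ATF core. The DDIT3 window held 1 hypoxia core, at -91 to -87, and no C/EBP-ATF core. Among the 9 genes with a window, 2 (ATF3 and ASNS, each in 1 of 2 windows) held the C/EBP-ATF core, against 3.89% of the 27305 genes in the table. The hypoxia core was found in 7 (all but ATF3 and SESN2), against 47.4% of genes. These matches describe letters in a window and do not show binding. Bases outside the windows were not searched, so absence of a core here does not show that a gene lacks one.

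Library totals ran from 433930 counts in the combined omission to 1088084 in normal food. Before scaling between libraries, 1 count was worth 0.919 to 2.30 CPM (counts per 1000000 counts). The gene levels given here are CPM after TMM scaling, with factors of 0.929 to 1.04. Colon epithelial markers, EPCAM and KRT20 among them, summed to 13983 to 17268 CPM, of which KRT8 made up 6422 to 8461 CPM. On the same list CDX1 (3.13 to 15.8 CPM), CDX2 (3.58 to 14.5) and CEACAM5 (6.34 to 31.7) were low, and CDX1 and CDX2 were not tested. At 0 in every library were 4 of 6 fibroblast (DCN among them), 4 of 5 endothelial (VWF), 4 of 6 leukocyte (PTPRC) and 3 of 4 adipocyte markers (ADIPOQ). The rest were led by CD68 (31.7 to 55.4 CPM) and COL1A1 (10.0 to 17.2 CPM). Host cells are from the mouse and reads were counted on a human genome, so these zeros cannot measure host tissue. Skeletal muscle markers summed to 65.7 CPM in the tryptophan/niacin-free library and to 1.79 to 4.53 CPM elsewhere, carried by the near-identical myosin genes MYH1, MYH2 and MYH4, with CKM at 0 throughout. In methionine-free replicate 2 the genes of the shortest transcript class of 4 (median 1617 bases) lay 0.49 above normal food on the log2 scale and those of the longest class (median 7028 bases) lay at -0.45. The same classes lay at 0.14 and -0.10 in replicate 1. The part of the muscle RNA in the results was not tested, and the tests were repeated with a correction for length and GC content. The sample titles come in 2 styles, one shared by the normal and combined-omission libraries and the other by the 3 libraries with a single omission. Diet and any difference in handling that the title styles mark cannot be told apart, and this touches every result in which the single-omission libraries stand apart. In tumour RNA, fewer cells of a type and less RNA per cell cannot be told apart.

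In levels per kilobase of transcript, ATF4 was the most abundant of the 10 genes in every library, with a mean over the 5 libraries of 156 CPM per kilobase. DDIT4 followed at 68.8, and TRIB3 (32.7), DDIT3 (32.2) and ASNS (28.0) lay close together and changed places between libraries. ATF3 stood at 14.9, SESN2 at 5.53 and VLDLR at 1.16 CPM per kilobase. The length used was that of the longest annotated transcript, protein-coding ones first. For VLDLR this was 9163 bases, and a shorter transcript would give a higher level. NUPR1 is left out of this order because its annotated transcripts differ widely in length. DDIT4 had rank 2 in 4 libraries and rank 4 in the tryptophan/niacin-free library, where ASNS and TRIB3 were above it. STC2, a secreted glycoprotein gene, had 0 counts in all 5 libraries. A count of 0 allows up to 2.73 CPM in normal food and up to 6.80 CPM in the combined omission (3 counts per library, counting error only).

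**Figure D1:**
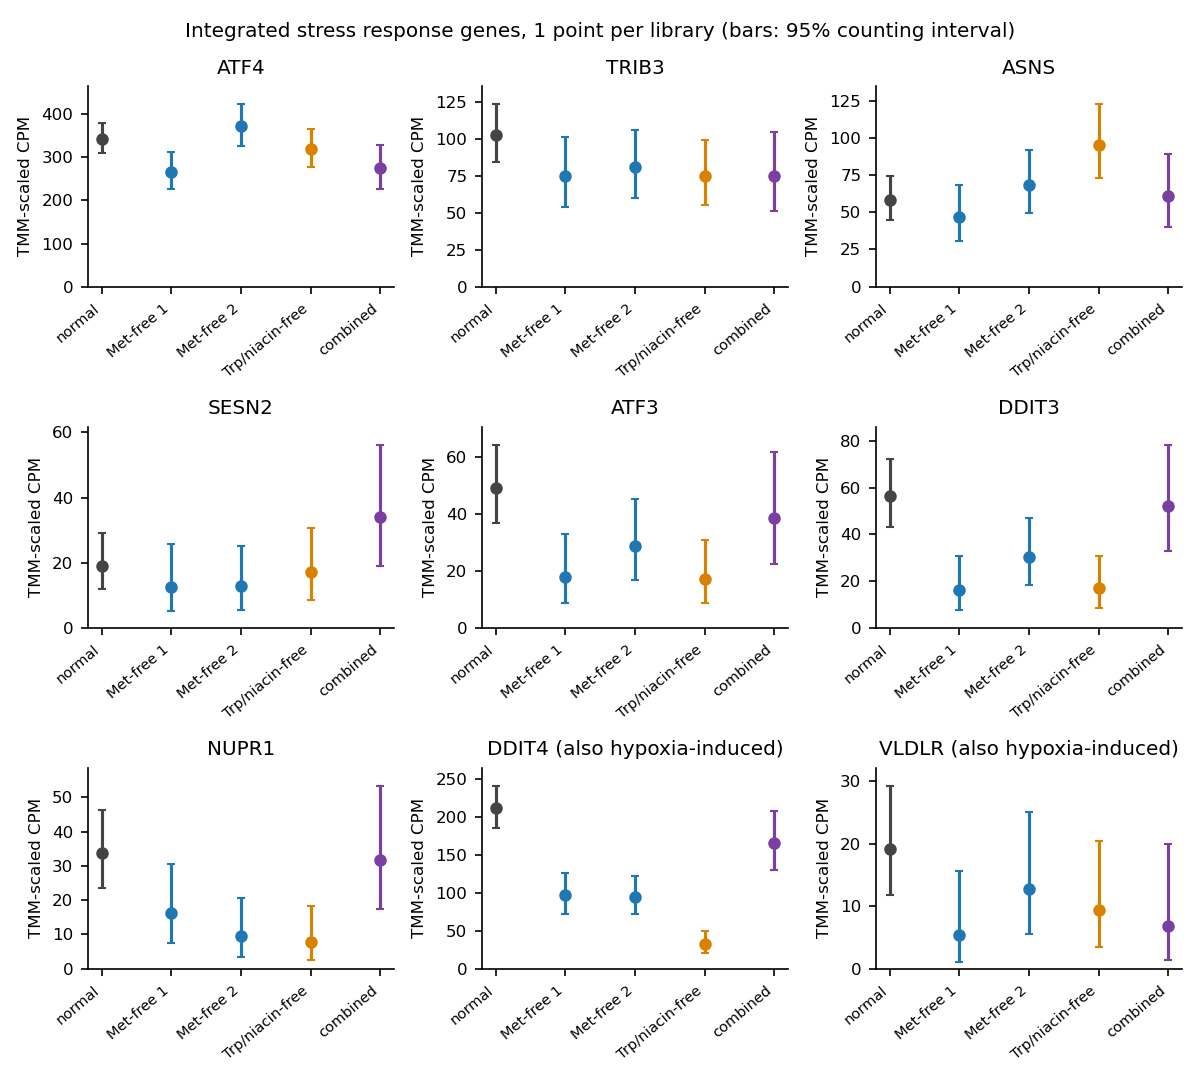
Scaled CPM (linear axis from 0) of the 9 detected genes in each of the 5 libraries, with 95% exact Poisson intervals that cover counting error only; Met-free is methionine-free, Trp/niacin-free is tryptophan/niacin-free and combined is the combined omission. ATF4 runs from 267 to 372 CPM and TRIB3 from 74.8 to 103 CPM, while DDIT4 is highest in normal food (212 CPM) and lowest in the tryptophan/niacin-free library (32.8 CPM).

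ATF4 and its amino acid targets come first. ATF4, the factor at the head of the response, was at 344 CPM in normal food, 267 and 372 in the methionine-free pair, 319 in the tryptophan/niacin-free and 274 in the combined-omission library. The 3 other libraries all lay between the 2 methionine-free replicates. Its count ratio to normal food was 0.798 in the combined omission (95% exact binomial interval 0.645 to 0.982, counting error only), and that between the methionine-free replicates was 1.40 (1.13 to 1.73). Its range over the libraries, 0.48 on the log2 scale, was at percentile 15.1 of the 10006 genes tested. In edgeR's quasi-likelihood test the methionine-free difference from normal was -0.10 (SE 0.44, log2, adjusted p = 0.985). These are RNA levels, and translation of ATF4 was not measured.

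ASNS, which makes asparagine, was at 58.2 CPM in normal food, 46.5 and 68.1 in the methionine-free pair, 95.4 in the tryptophan/niacin-free and 61.2 in the combined-omission library. Normal food and the combined omission lay within the methionine-free pair, and only the tryptophan/niacin-free library was outside it. Its count ratio to normal food there was 1.64 (95% exact binomial interval 1.14 to 2.37), which was the sole ratio above 1 with an interval clear of 1 among the 9 detected genes in that library. It was under the 2-fold minimum of the size rule used for single libraries (at least 2-fold in scaled log2 CPM with an interval that excludes 1, no test). TRIB3, a pseudokinase that ATF4 and CHOP induce and that feeds back on ATF4, was at 103 CPM in normal food, 75.2 and 80.8 in the methionine-free pair, 75.1 in the tryptophan/niacin-free and 74.8 in the combined-omission library. All 4 libraries of the omission diets were below normal food, by a similar amount, and each interval of the ratio included 1 (for the combined omission 0.728, 0.478 to 1.08). SESN2, a sestrin that restrains mTORC1, was at 19.1 CPM in normal food, 12.5 and 12.7 in the methionine-free pair, 17.2 in the tryptophan/niacin-free and 34.0 in the combined-omission library. The combined omission was highest, from 15 counts, and its ratio to normal food of 1.78 had an interval of 0.854 to 3.62.

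Of the stress arm, DDIT3, the gene of the pro-apoptotic factor CHOP, was at 56.3 CPM in normal food, 16.1 and 30.1 in the methionine-free pair, 17.2 in the tryptophan/niacin-free and 52.1 in the combined-omission library. The 3 single-omission libraries were all below the other 2 in level. The counting intervals of methionine-free replicate 2 (18.1 to 47.0 CPM) and the combined omission (33.0 to 78.2 CPM) overlapped. ATF3, a stress-induced factor of the ATF family, was at 49.1 CPM in normal food, 17.9 and 28.5 in the methionine-free pair, 17.2 in the tryptophan/niacin-free and 38.5 in the combined-omission library. Its 3 single-omission libraries were also below the other 2, with a narrower gap to the combined omission and overlapping counting intervals there. NUPR1, a small stress-induced chromatin protein, was at 33.6 CPM in normal food, 16.1 and 9.51 in the methionine-free pair, 7.82 in the tryptophan/niacin-free and 31.7 in the combined-omission library. It too was low in the single-omission libraries, where it rests on 5 to 9 counts.

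Of the genes that hypoxia also induces, DDIT4, whose product REDD1 inhibits mTORC1, was at 212 CPM in normal food, 96.7 and 95.1 in the methionine-free pair (95.9 ± 1.11, SD, n = 2), 32.8 in the tryptophan/niacin-free and 165 in the combined-omission library. The methionine-free pair was lower than normal food and nearly equal to each other, the tryptophan/niacin-free library was lower again, and the combined omission was close to normal food. Its range of 2.58 on the log2 scale was at percentile 99.4 of the genes tested. VLDLR, a lipoprotein receptor gene, was at 19.1 CPM in normal food, 5.37 and 12.7 in the methionine-free pair, 9.38 in the tryptophan/niacin-free and 6.80 in the combined-omission library. All 4 libraries of the omission diets were below normal food, on 3 to 8 counts. In the combined omission its 3 counts gave a ratio to normal food of 0.356, with an interval of 0.068 to 1.19 that includes 1.

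**Figure D2:**
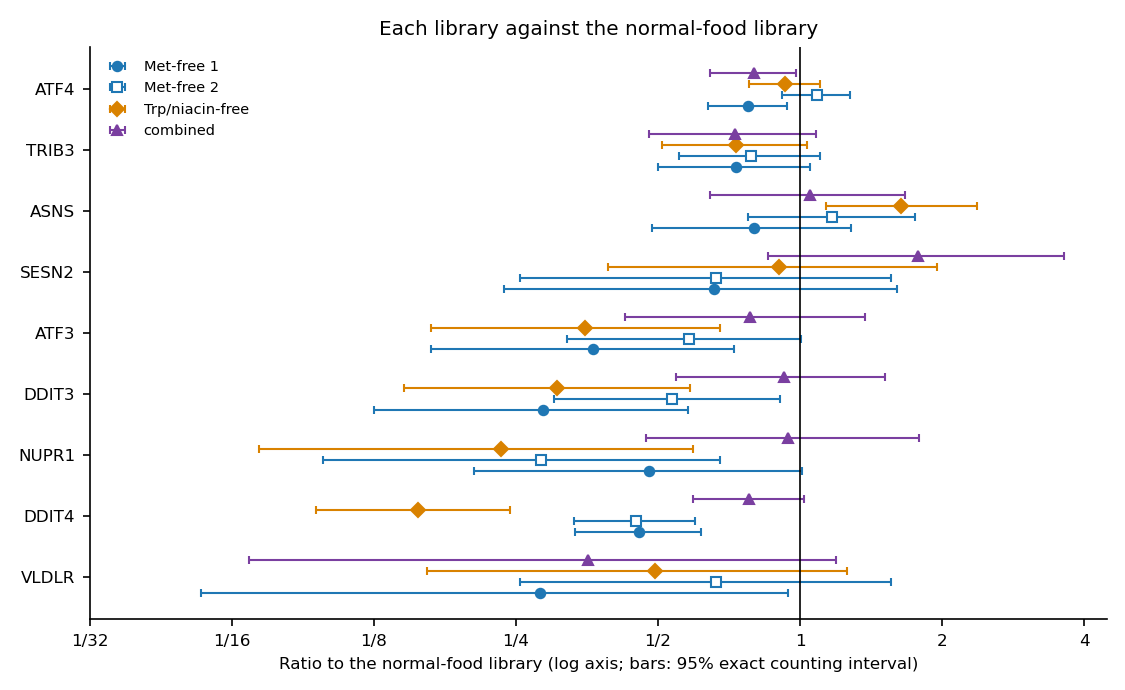
Ratio of each gene's count share to that in normal food (log axis) in the other 4 libraries, with 95% exact binomial intervals that cover counting error only; Met-free, Trp/niacin-free and combined stand for the methionine-free, tryptophan/niacin-free and combined-omission libraries. DDIT4 is 0.155 of normal food in the tryptophan/niacin-free library and 0.781 in the combined omission, whereas TRIB3 stays between 0.728 and 0.787.

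Against normal food, all 9 tested genes had a negative methionine-free difference, and none passed an adjusted p of 0.05 in edgeR's quasi-likelihood test, in DESeq2 or in limma-voom. Across all 10006 genes, 0.23% were lower and 0% higher at that threshold. DDIT4 had the smallest adjusted p of the 9 (-1.14, SE 0.40, log2, adjusted p = 0.385), and DDIT3 was at -1.26 (SE 0.47, adjusted p = 0.436). With the length and GC correction DDIT4 was at -1.29 (adjusted p = 0.176 in edgeR) and DDIT3 at -1.73 (adjusted p = 0.207). Without adjustment 4 genes (ATF3, DDIT3, DDIT4 and NUPR1) had p under 0.05, against 5.2% of all genes in the lower direction. Taken singly by the size rule, replicate 1 was lower than normal food in 4 of the 9 genes (ATF3, DDIT3, DDIT4 and VLDLR, 2.06% of all genes) and replicate 2 in 2 (DDIT4 and NUPR1, 8.92% of all genes). DDIT4 was 2.19-fold lower (1.62 to 3.00) in replicate 1 and 2.23-fold lower (1.67 to 3.01) in replicate 2. Leaving out replicate 2 gave DDIT3 -1.79 and leaving out replicate 1 gave -0.90, in each case with no residual degrees of freedom for a test. STC2 was too low to test, and VLDLR reached the filter's level only in normal food, NUPR1 only in normal food and the combined omission, so their presence among the tested genes depends on the libraries where they were high.

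In the tryptophan/niacin-free library, 4 of the 9 genes were lower than in normal food by the size rule, against 2.49% of all genes tested. DDIT4 was 6.45-fold lower (4.12 to 10.6), NUPR1 4.30-fold (1.69 to 14.0), DDIT3 3.28-fold (1.71 to 6.90) and ATF3 2.85-fold (1.47 to 6.05). NUPR1 passed the filter only through normal food and the combined omission, where it was high, so its call lends no support. None was higher by the rule, against 1.02% of all genes. For comparison, 6.57% of genes passed the same rule in either direction between the 2 methionine-free replicates, none of these 9 among them. Between the single omissions, tested against the methionine-free pair, no gene of the 9 passed (0% of all genes lower and 0% higher). DDIT4 came nearest, at -1.54 (SE 0.51, log2, adjusted p = 0.699 in edgeR), the only one of the 9 with an unadjusted p under 0.05, against 2.35% of all genes in the lower direction, and none passed in DESeq2 or limma-voom.

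The combined omission differed from normal food by the size rule in none of the 9 genes, against 1.08% of all genes lower and 0.949% higher. DDIT4 was at a ratio of 0.781 (0.592 to 1.02), DDIT3 at 0.925 (0.547 to 1.51), NUPR1 at 0.943 (0.471 to 1.79) and ATF3 at 0.785 (0.427 to 1.38). All 4 intervals include 1, and those of NUPR1 and ATF3 allow levels as low as 0.471 and 0.427 of normal food. Against the tryptophan/niacin-free library, 3 genes were higher by the rule, and none lower, against 2.31% and 1.74% of all genes: DDIT4 5.04-fold (3.06 to 8.62), NUPR1 4.06-fold (1.38 to 14.4) and DDIT3 3.03-fold (1.42 to 6.88). The place of NUPR1 among the 3 depends on the filter, which it passed only through normal food and the combined omission. Against the methionine-free pair none passed in edgeR, DESeq2 or limma-voom (0.03% of all genes higher and 0% lower), and DDIT3 (1.15, SE 0.54, log2, adjusted p = 0.639 in edgeR) and SESN2 (1.42, SE 0.67, log2, adjusted p = 0.645) had an unadjusted p under 0.05, against 4.7% of all genes. These comparisons share libraries and are not separate evidence.

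The design also asks whether leaving out methionine acted differently with and without tryptophan and niacin in the food. The interaction is the log2 difference between the combined omission and the tryptophan/niacin-free library, minus the difference between the methionine-free pair and normal food. DDIT4 passed, at 3.47 (SE 0.69, log2, adjusted p = 0.000345 in edgeR), rank 13 of 10006, while 0.41% of all genes passed in the same direction and 0.00999% in the other. Its difference was positive without tryptophan and niacin in the food and negative with them. The call was lost in DESeq2 (3.48, SE 1.00, adjusted p = 0.718) and held in limma-voom (adjusted p = 0.000653) and with the length and GC correction (3.51, adjusted p = 0.0106). DDIT3 did not pass, at 2.85 (SE 0.80, adjusted p = 0.0731 in edgeR), nor did NUPR1 at 3.39 (SE 1.02, adjusted p = 0.134) or ATF3 at 2.22 (SE 0.85, adjusted p = 0.435). Those 3 and DDIT4 had an unadjusted p under 0.05, against 4.51% of all genes. The other 5 lay between -0.63 (ASNS) and 1.57 (SESN2), with ATF4 at -0.12 and TRIB3 at 0.39. This contrast sets the normal and combined-omission libraries against the single-omission libraries and so coincides with the title styles. NUPR1 passed the filter only through the normal and combined-omission libraries, so its value in this contrast depends on where it was high.

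By rank alone, 5 genes (ATF3, DDIT3, DDIT4, NUPR1 and SESN2) had all 3 single-omission libraries below both others, against 15.3% of all genes tested, and none had them all above, against 13.9%. Without NUPR1, which passed the filter through the 2 high libraries, the count was 4. DDIT4 was the only one of the 9 that was lower than normal food by the size rule in each of these 3 libraries, against 0.58% of all genes. In the division used here, 4 of these 5 were placed with the amino acid response and 1, DDIT4, with the genes that hypoxia also induces. The division does not show that low oxygen leaves the 4 unchanged. With DDIT4 and VLDLR the only tested genes of the second group, and VLDLR on 3 to 8 counts outside normal food, no comparison of the groups can be drawn.

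Upstream of ATF4, none of 16 genes of the eIF2 kinases, eIF2 and its regulators passed any of the 4 tests, and their summed level ran from 1603 CPM (tryptophan/niacin-free) to 1697 CPM (combined omission). EIF2AK1, the gene of the haem-sensing kinase HRI, was at 236 CPM in normal food, 333 and 309 in the methionine-free pair, 267 in the tryptophan/niacin-free and 256 in the combined-omission library. By the size rule PPP1R15A (GADD34), the phosphatase subunit that reverses eIF2 phosphorylation and is itself a target of ATF4 and CHOP, was 2.15-fold lower (1.59 to 2.96) in the tryptophan/niacin-free library than in normal food. It was the only 1 of the 16 called there, against 2.49% of all genes lower. EIF2B1, a subunit of the exchange factor eIF2B, was 2.67-fold lower (1.45 to 5.39) in the combined omission than in normal food. This too was the only 1 of the 16 called in that comparison, against 1.08% of all genes lower. EIF2S1, the gene of the phosphorylated subunit eIF2 alpha, was at 40.9 CPM in normal food, 87.7 and 88.7 in the methionine-free pair, 57.9 in the tryptophan/niacin-free and 83.8 in the combined-omission library. Normal food was lowest, and each methionine-free replicate was higher than normal food by the size rule (2.14-fold, 1.40 to 3.29, and 2.17-fold, 1.44 to 3.29), against 0.929% and 4.91% of all genes. The methionine-free difference did not pass (1.11, SE 0.44, log2, adjusted p = 0.509 in edgeR).

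Of 37 other ATF4 targets 29 could be tested, and their median methionine-free difference from normal was -0.22 (log2) against 0.00 over all genes. None was higher and 1 lower at an adjusted p of 0.05, against 0% and 0.23% of all genes. That 1 was KLHL24 (-1.70, SE 0.44, log2, adjusted p = 0.0479 in edgeR), which lost its call in DESeq2 (adjusted p = 1), in limma-voom (0.0958) and with the length and GC correction (0.272). The enzymes of amino acid and one-carbon metabolism summed to 959 to 1070 CPM in all libraries, with SHMT2, mitochondrial serine hydroxymethyltransferase, at 258 to 383 CPM. None of the 8 tested passed any of the 4 tests, nor the size rule for any library against normal food or for the combined omission against the tryptophan/niacin-free library. PHGDH, of serine synthesis, differed by the size rule between the methionine-free replicates (21.5 and 55.5 CPM, ratio 2.58, 1.31 to 5.46), as 6.57% of all genes did in either direction. The same absence of calls in these tests and comparisons held for the 5 tested transporters, SLC7A5 and its partner SLC3A2 among them, and for the 9 genes of the list of tRNA synthetases and the tRNA exporter XPOT. CHAC1, a glutathione-degrading enzyme often used as a marker of ATF4 activity, had 1 to 8 counts per library and was not tested, and FGF21 had 0 counts in every library.

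GDF15 and KLHL24 stood out in the levels. GDF15, a stress-induced hormone of the TGF-beta family, was at 146 CPM in normal food, 43.0 and 79.2 in the methionine-free pair, 31.3 in the tryptophan/niacin-free and 120 in the combined-omission library. KLHL24, a ubiquitin ligase adaptor, was at 85.4 CPM in normal food, 34.0 and 19.0 in the methionine-free pair, 15.6 in the tryptophan/niacin-free and 43.1 in the combined-omission library. By rank alone, both had all 3 single-omission libraries below the other 2, as did 15.3% of all genes. KLHL24 rests on 19 counts in methionine-free replicate 1 and 19 in the combined omission. They were the only 2 of the 29 to pass the interaction, against 0.41% of all genes (GDF15 3.18, SE 0.68, adjusted p = 0.00157; KLHL24 3.15, SE 0.81, adjusted p = 0.0289, in edgeR). Neither passed in DESeq2 (adjusted p = 1.00 for both), and KLHL24 did not pass in limma-voom (0.0539) or with the length and GC correction (0.147).

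None of the 5 CHOP targets passed a test, and 2 were lower by the size rule in the tryptophan/niacin-free library than in normal food, against 2.49% of all genes: PPP1R15A, given above, and ERO1A, an oxidase of the endoplasmic reticulum that hypoxia also induces, at 2.08-fold (1.56 to 2.79). Chaperones and other genes of the unfolded protein response gave 0 of 18 in each test. HSPA5, the gene of the chaperone BiP, was at 495 CPM in normal food, 430 and 429 in the methionine-free pair, 394 in the tryptophan/niacin-free and 668 in the combined-omission library. It was highest in the combined omission, at less than the 2-fold of the rule. HERPUD1, of protein degradation at the endoplasmic reticulum, was 2.42-fold lower (1.61 to 3.77) in the tryptophan/niacin-free library than in normal food, and SDF2L1 was 3.05-fold higher (1.15 to 8.32) in the combined omission, on 11 counts against 9. Each was the only 1 of the 18 called in its comparison, against 2.49% of all genes lower and 0.949% higher. SDF2L1 reached the filter's level in the combined omission alone, so its place among the tested genes depends on the library where it was high.

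**Figure D3:**
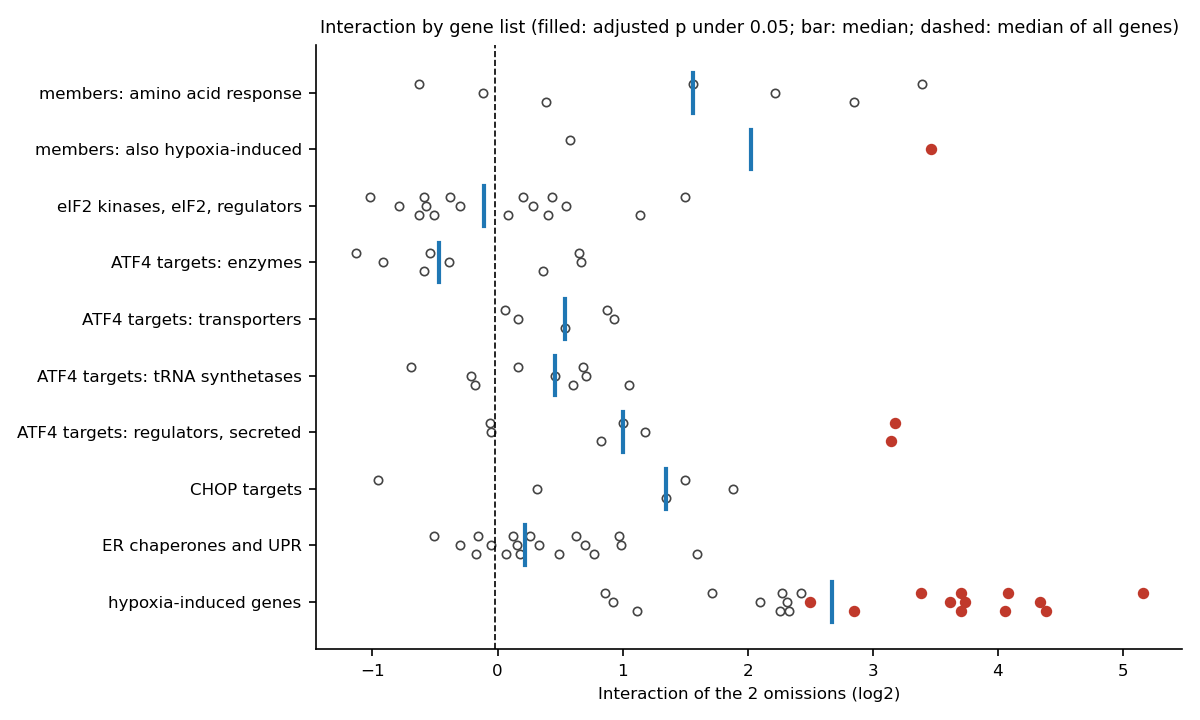
Interaction (log2) of each tested gene, by list, with filled dots for adjusted p under 0.05 in edgeR, a blue bar for the list's median and a dashed line for the median of all genes. The hypoxia list has its median at 2.67 and the eIF2 list at -0.11, and DDIT4 is the one filled member.

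The hypoxia-induced genes were counted for comparison, since DDIT4 belongs to both programmes. Of 22 tested, 6 were lower in the methionine-free pair than in normal food (median -1.27, log2), against 0.23% of all genes, and 18 were lower by the size rule in the tryptophan/niacin-free library (median -1.62), against 2.49%. In DESeq2 1 of the 6 passed (NDRG1). In the interaction 12 passed, against 0.41% of all genes, at 2.50 to 5.16, with a list median of 2.67, against medians of 0.46 over the 29 other ATF4 targets and -0.02 over all genes. In DESeq2 10 of the 12 lost their call. PFKFB4, 1 of the 12, reached the filter's level only in normal food and the combined omission. Its place among the tested genes depends on the libraries where it was high. NDRG1, the largest of the 12, was at 3302 CPM in normal food, 763 and 635 in the methionine-free pair, 307 in the tryptophan/niacin-free and 2318 in the combined-omission library. It had the order of DDIT4, and the difference between the 2 lists was not tested. The lists were chosen with earlier results of these data known, so these shares give no independent support.

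The genes nearest to DDIT4, DDIT3 and ASNS were found among the 4823 or 4824 other genes with a mean of at least 50 CPM, by the Euclidean distance between log2 profiles over the 5 libraries after centring each gene; the points share library and depth, and no test applies. DDIT4 was nearest to EGLN3 (0.251), an oxygen-sensing prolyl hydroxylase, BNIP3L (0.353), a mitophagy receptor, NDUFA4L2 (0.554), EFNA1 (0.649) and PDK1 (0.655), a kinase that inhibits pyruvate dehydrogenase. All but EFNA1 are in the list of hypoxia-induced genes. EGLN3 was at 110 CPM in normal food, 55.5 and 44.4 in the methionine-free pair, 14.1 in the tryptophan/niacin-free and 79.3 in the combined-omission library. DDIT3 was nearest to the collagen-modifying enzymes PLOD2 (0.282) and P4HA1 (0.437), then to GDF15 (0.470), PPARD (0.635) and PFKL (0.645). Of these, P4HA1 is in the list of hypoxia-induced genes, GDF15 is among the other ATF4 targets, and the rest are in neither. The hypoxia list is a chosen set and leaves out genes that low oxygen also induces, such as ERO1A. Absence from it, here or for EFNA1, does not show that low oxygen leaves a gene unchanged. List membership therefore cannot compare the neighbours of DDIT3 with those of DDIT4. PLOD2 was at 192 CPM in normal food, 57.3 and 91.9 in the methionine-free pair, 48.5 in the tryptophan/niacin-free and 156 in the combined-omission library. ASNS had other neighbours, ANXA1 (0.144), FTSJ1 (0.145), KRT80 (0.166), TRIM47 (0.204) and SPTY2D1 (0.251), none of which is in the lists of ATF4 targets. ANXA1 was at 199 CPM in normal food, 177 and 246 in the methionine-free pair, 321 in the tryptophan/niacin-free and 204 in the combined-omission library, highest where ASNS was highest.

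**Figure D4:**
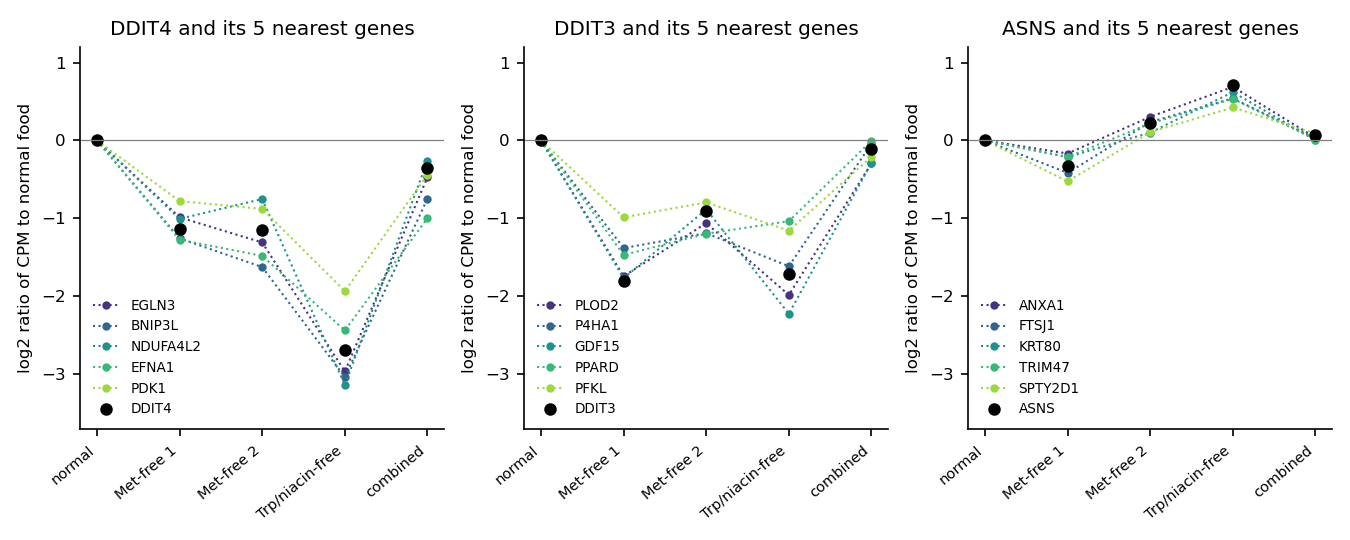
Log2 ratio of CPM to normal food in each library for DDIT4, DDIT3 and ASNS and the 5 genes nearest to each, with Met-free for methionine-free, Trp/niacin-free for tryptophan/niacin-free and combined for the combined omission; lines join the libraries only to aid the eye. DDIT4 and EGLN3 dip in the single-omission libraries and are lowest in the tryptophan/niacin-free one (32.8 and 14.1 CPM), where ASNS and ANXA1 are highest (95.4 and 321 CPM).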

How the data were processed

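RNA of HT-29 tumours (5 libraries, 4 diets) was sequenced from stranded mRNA libraries, per the labels' protocols. Reads were processed with TopHat2 2.1.1, Bowtie2 2.2.8, SAMtools 0.1.18 and featureCounts (Subread 2.0.0) on hg19, per the submitters' processing notes. Annotation, strand setting and any removal of mouse reads were not given in the sources used here. The authors deposited estimated counts per gene, of which 15.2% to 17.6% of values above 0 had decimals; these were rounded to whole numbers, ties upwards. Without mention of how strand was counted, reads of overlapping genes may be mixed.

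Counts were scaled by TMM and fitted in edgeR 4.0.16 (R 4.3.3) with a quasi-likelihood model, 1 mean per diet, over all 5 libraries. The replicated diet gives the only residual degree of freedom (1), and the 3 lone libraries are assumed to vary like it. The prior degrees of freedom were infinite, so each gene's spread was replaced by a value shared over genes of like level. With the length correction they were 10.2, and with length and GC content 11.6. The filter filterByExpr kept 10006 of 26364 genes (16358 removed), and p-values were adjusted by Benjamini-Hochberg over all 10006 at a threshold of 0.05. Comparisons of lone libraries have no test: the size rule was a 2-fold difference in log2 CPM (prior count 2) with a 95% exact conditional binomial interval that excludes 1. PCR reads without molecular identifiers are not independent molecules, so intervals and floors of 3 counts cover counting error only. Alternatives were DESeq2 1.42.0 and its size factors, total counts, no filter, limma-voom (limma 3.58.1), a correction for length or length and GC content (GENCODE v29 transcripts, 98.7% of tested genes), leaving out each methionine-free replicate, another prior count and a 1.5-fold minimum. The code was tested on simulated data. Promoters came from RefSeq.

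The members and gene lists were chosen with earlier results of these data known. Genes named besides the members passed a test, had the highest mean CPM of their list (up to 4), had the largest size-rule difference (up to 2), or were the 5 nearest profiles. CHAC1, FGF21, EIF2S1 and PHGDH lie outside this rule and were chosen after their values were seen.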

Additional observations from a re-analysis of the deposited data

Results flagged for a closer look

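Among the members and the lists, 15 genes passed the interaction test in edgeR with a positive value (adjusted p under 0.05, log2). Of all genes, 0.41% passed in this direction. The lists were chosen with earlier results of these data known, so the count of 15 gives no independent support. In DESeq2 only NDRG1 and VEGFA of the 15 passed, and the other 13 lost their call. Among the members the gene that passed in edgeR was DDIT4, at 3.47 (adjusted p = 0.000345). Among other ATF4 targets it was GDF15, at 3.18 (adjusted p = 0.00157), and KLHL24, at 3.15 (adjusted p = 0.0289). The other 12 were hypoxia-induced genes. The glycolytic genes HK2 at 4.39 (adjusted p = 1.16e-06), ENO2 at 4.08 (7.07e-06), PFKFB3 at 3.39 (0.000345) and PFKFB4 at 4.06 (0.00378) were among them. PFKFB4 reached the filter's level only in normal food and the combined omission, where it was high, so its call lends no support. NDRG1 was at 5.16 (2.72e-05), the peptide hormone ADM at 4.34 (2.72e-05) and the angiogenic factor VEGFA at 3.70 (0.000181). The mitochondrial genes NDUFA4L2 and BNIP3L were at 3.74 (0.000181) and 3.70 (0.00153). The hydroxylase genes EGLN3, P4HA1 and P4HA2 were at 3.62 (0.00108), 2.85 (0.00636) and 2.50 (0.0335). In all 15 the contrast sets the normal and combined-omission libraries against the single-omission libraries, which the sample titles also separate.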

How the results depend on the processing

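No paired analysis was possible because 3 of the diets had 1 library and the methionine-free replicate numbers are only accession order. Leaving out a methionine-free replicate left no residual degrees of freedom and so gave values without a test. The depth of 433930 to 1088084 counts limits SESN2, NUPR1 and VLDLR most, since they rest on 3 to 37 counts per library. Genes past the threshold numbered 23 in the methionine-free comparison with normal food, but 1 in DESeq2, 2 with the length correction and 3 with the length and GC correction. They numbered 3 for the combined omission against methionine-free, but 6 with total counts, 9 in limma-voom, and 0 in DESeq2, with the length correction and with the length and GC correction. In the interaction there were 42, but 2 in DESeq2, 11 with the length correction and 20 with the length and GC correction, and the 1 member was lost in DESeq2 (0). With a 1.5-fold minimum the size rule counted 870 in place of 351 genes for tryptophan/niacin-free against normal, 529 in place of 203 for the combined omission against normal, and 819 in place of 405 for the combined omission against tryptophan/niacin-free.

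Reversals of sign concerned members that passed no test in the comparison (log2). Leaving out each methionine-free replicate, the methionine-free difference from normal food ran from -0.36 to 0.12 for ATF4 and from -0.32 to 0.23 for ASNS, the combined omission against methionine-free from -0.44 to 0.040 for ATF4, from -0.16 to 0.39 for ASNS and from -0.88 to 0.33 for VLDLR, tryptophan/niacin-free against methionine-free from -0.22 to 0.26 for ATF4, from -0.80 to 0.094 for DDIT3 and from -0.43 to 0.78 for VLDLR, and the interaction from -0.34 to 0.15 for ATF4. With total counts, TRIB3 was at 0.0099 for the combined omission and 0.051 for tryptophan/niacin-free against methionine-free, and ATF4 at 0.11 for the latter. For ATF4 that last comparison also gave 0.0074 without the filter, 0.020 in limma-voom, 0.20 with the length correction and 0.17 with the length and GC correction. With the length correction TRIB3 was at 0.023 for the combined omission and 0.052 for tryptophan/niacin-free against methionine-free, VLDLR at -0.30 for the latter (-0.29 with GC content as well), and ATF4 at 0.037 in the interaction. The cause of these differences was not tested.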
